A study of Saccharomyces cerevisiae with 8 samples.

Results

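The heat response of budding yeast, Saccharomyces cerevisiae, lacking RAD27 was described from messenger RNA of 4 libraries, 2 from RAD27 knockout cells at 37 °C and 2 from RAD27 knockout cells at 30 °C. They were chosen by their labelled genotype and growth temperature, out of 8 RNA libraries. The other 4 came from wild type cells, 2 at 37 °C and 2 at 30 °C, and served to ask where the knockout's response differed. All cultures were grown overnight at 30 °C in YPD, a rich glucose medium, diluted into fresh YPD and kept for 4 hours at 30 or 37 °C before harvest. The labels say neither how the knockout was made, whether it was 1 clone, nor its strain background. Nothing says that replicates came from different cultures, and a p therefore measures only the spread between these samples. The series asked how faulty maturation of Okazaki fragments (the pieces in which the lagging strand is copied) changes gene expression. Of 6692 genes in the count table, 5667 had enough counts to be tested, and 224 had none in any library. Levels are scaled counts (CPM, relative to library size after TMM), log2 fold changes are 37 over 30 °C ± SE, and a gene was called higher or lower where edgeR's quasi-likelihood test gave a Benjamini-Hochberg adjusted p under 0.05 over all genes tested.

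At 37 °C, the upper end of the comfortable range of budding yeast, 2 transcription programmes are known to respond. Heat shock factor Hsf1 drives chaperone genes, whose products refold or hold damaged proteins. Msn2 and Msn4 drive the environmental stress response, in which stress and carbohydrate reserve genes rise while genes for making ribosomes fall, and that response also follows glucose shortage, oxidants and slow growth. Rad27, the yeast FEN1 flap endonuclease, cuts the 5′ flaps of Okazaki fragments before they are ligated. Cells without it are known to grow poorly at 37 °C and to depend on the DNA damage checkpoint.

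RAD27 (YKL113C, chromosome XI, 224727 to 225875, minus strand) had 0 counts in both knockout libraries at 37 °C and 0 in both at 30 °C. In wild type its level was 96.8 and 90.4 CPM at 37 °C and 118.9 and 109.6 CPM at 30 °C. The labels of all 8 libraries therefore matched the level of the deleted gene. Library totals ran from 4734266 to 5588983 counts, so that 3 counts corresponded to 0.506 to 0.669 CPM. On principal component 1, with 61.6% of the variance, the knockout at 37 °C stood at 33.8 and 43.6 while the remaining 6 libraries lay from -22.5 to -6.64. The 2 knockout libraries at 37 °C also differed most from each other, with a chi-square per degree of freedom of 8.69, against 3.95 for the knockout at 30 °C, 1.85 for wild type at 37 °C and 2.50 for wild type at 30 °C. Among 5157 genes with at least 10 CPM, 31 differed more than 2-fold between the knockout replicates at 37 °C and 4 between those at 30 °C. Several genes of alternative carbon sources stood higher in replicate 2 than in replicate 1 at 37 °C, and both values are given where they are named.

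Stretches before 6 start codons are shown because the named transcription factors bind such letters and the genes behind them moved far in the knockout. Each is read on the coding strand from RefSeq's R64 genome, from 50 bases before the first site to 10 after the last. Only the sites named here for each gene are in capitals. Other letters counted in the next paragraph stay in lower case, such as CACGTG before TDH1 and GATGAG before LEU1. HSP12 (chrVI:106974-107080, plus strand) holds 2 copies of the stress response element bound by Msn2 and Msn4, and TDH1 (chrX:337992-338056, plus strand) holds 1. SSA2 (chrXII:97696-97768, minus strand) holds a heat shock element, the site of Hsf1. LEU1 (chrVII:478850-478919, minus strand) holds a site of Leu3, the leucine pathway regulator. BAT1 (chrVIII:517311-517404, plus strand) holds a site of Gcn4, the general amino acid regulator, and then one of Leu3. BFR2 (chrIV:1059468-1059538, plus strand) holds 2 overlapping PAC motifs, a sequence common before ribosome biogenesis genes.
HSP12: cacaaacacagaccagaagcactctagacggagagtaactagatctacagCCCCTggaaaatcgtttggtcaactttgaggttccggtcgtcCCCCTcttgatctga
TDH1: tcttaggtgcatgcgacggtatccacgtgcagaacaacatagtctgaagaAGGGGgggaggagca
SSA2: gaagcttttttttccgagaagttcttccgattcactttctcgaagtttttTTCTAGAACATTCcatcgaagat
LEU1: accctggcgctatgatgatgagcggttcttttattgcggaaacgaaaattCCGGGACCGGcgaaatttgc
BAT1: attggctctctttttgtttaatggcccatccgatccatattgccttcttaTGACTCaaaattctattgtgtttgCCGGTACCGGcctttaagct
BFR2: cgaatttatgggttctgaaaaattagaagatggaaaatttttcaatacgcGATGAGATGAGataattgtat

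The same letters were counted on both strands in the 300 bases before the start codon of 5528 tested genes. The stress response element, AGGGG, stood in 22.5% of all windows. It stood in 206 of 502 windows (41.0%) of genes at least 2-fold higher at 37 °C in the knockout and in 18 of 114 (15.8%) of those at least 2-fold lower. Genes higher by less than 2-fold had it in 30.7% of windows, genes that did not pass in 18.1%, and genes lower by less than 2-fold in 16.6%. Among small stress protein genes 14 of 22 windows held it. The heat shock element, searched as 3 alternating GAA and TTC triplets with 2 bases between neighbours, stood in 49 windows, 0.886% of all. It stood in 5 of 28 windows of the cytosolic Hsp70 and Hsp90 genes and in 2 of 502 (0.398%) of the genes at least 2-fold higher. The Leu3 site, 2 copies of CCGG with 2 bases between, occurred in 9 of 5528 windows, and 4 of those 9 lay before the 114 windows of genes at least 2-fold lower. TGACTC, the Gcn4 site, stood in 8.0% of all windows and in 61.5% of those of branched-chain amino acid genes, but in 6.14% for genes at least 2-fold lower and 9.16% for genes at least 2-fold higher. The PAC motif GATGAG stood in 19.0% of all windows and in 86.2% of those of ribosome biogenesis genes. Genes at least 2-fold lower held PAC in 12.3% of windows, genes lower by less than 2-fold in 26.5%, and genes at least 2-fold higher in 12.7%. CACGTG, read by Cbf1 and Pho4, stood in 3.60% of all, 35.7% of methionine genes and 43.5% of phosphate genes. These are matches of letters and no binding was measured.

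In the knockout 1751 genes were higher at 37 °C (30.9% of those tested) and 1596 lower (28.2%), together 3347 genes (59.1%). At least 2-fold changes numbered 519 higher (9.16%) and 119 lower (2.10%), so large rises outnumbered large falls. The median log2 fold change over all genes was 0.04, the 5th to 95th percentiles ran from -0.80 to 1.42, and the extremes were -3.03 and 6.28. With library size as the sole scaling, the median moved by 0.24, and 2803 genes were higher and 842 lower, so the split between the directions depends on the scaling, and small changes near that size are relative to the other genes. The median of all genes was then 0.27. List counts and medians given below for library size alone are to be read against these values for all genes. Against a 1.5-fold change, 545 genes were higher and 303 lower. For 79.3% of genes tested the 37 and 30 °C libraries of the knockout did not overlap. In bulk RNA, fewer cells of a kind and less RNA per cell cannot be told apart.

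The largest rises in the knockout were those of HSP26, a small heat shock protein that holds unfolding proteins, and HSP12, a membrane-protecting stress protein. HSP26 (YBR072W, chromosome II, 382030 to 382674, plus strand) stood at 1100.4 and 1013.4 CPM at 37 °C, against 15.6 and 11.6 CPM at 30 °C, a 77.8-fold rise (log2 fold change 6.28 ± 0.11, edgeR adjusted p = 7.77e-13). HSP12 stood at 720.0 and 918.0 CPM at 37 °C, against 17.5 and 27.9 CPM at 30 °C (5.17 ± 0.17, adjusted p = 3.28e-10). Both genes were far apart between the temperatures, with neither replicate near the other group. TDH1, the glyceraldehyde-3-phosphate dehydrogenase isozyme of slowly growing cells, stood at 1396.2 and 1444.1 CPM, against 63.6 and 49.5 CPM at 30 °C (4.65 ± 0.11). PIR3, a heat-induced protein of the cell wall, stood at 194.4 and 351.8 CPM, against 11.3 and 11.2 CPM (4.60 ± 0.28). GAC1, the subunit that directs phosphatase 1 to glycogen synthase, had 102.1 and 190.3 CPM, against 5.65 and 5.31 CPM (4.74 ± 0.32). PIR3 and GAC1 stood higher in replicate 2 at 37 °C than in replicate 1. Non-overlap between the temperatures was a condition for the 10 largest rises and the 10 largest falls.

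Other large rises were those of BAG7, a GTPase-activating protein for Rho1, at 89.0 and 156.4 CPM at 37 °C, against 3.70 and 5.69 CPM at 30 °C (4.70 ± 0.33). EGO4, a small protein, stood at 69.9 and 116.8 CPM, against 5.26 and 4.55 CPM (4.25 ± 0.28). GPG1, a partner of the glucose-sensing G protein Gpa2, stood at 84.0 and 92.5 CPM, against 5.65 and 4.93 CPM (4.06 ± 0.14). For the last 2 of the 10 largest rises the replicates at 37 °C disagreed about the size. YNL194C, a membrane protein of the eisosome, had 11.3 and 52.6 CPM at 37 °C, against 1.36 and 0.949 CPM at 30 °C (4.79 ± 0.82), and its log2 fold change was 3.27 without replicate 2 and 5.46 without replicate 1 at 37 °C. PCK1, the first enzyme of gluconeogenesis, had 48.0 and 181.4 CPM, against 6.82 and 7.02 CPM (4.06 ± 0.57), with 2.78 without replicate 2 and 4.69 without replicate 1 at 37 °C. Both remained past the threshold in either case.

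The 10 largest falls included 3 genes of phosphate use and 3 of branched-chain amino acid synthesis. PHO12 and PHO11 are near-identical acid phosphatases whose reads may be split between them. PHO12 had 7.69 and 5.06 CPM at 37 °C, against 66.9 and 37.0 CPM at 30 °C (-3.03 ± 0.29), and PHO11 had 3.84 and 2.87 CPM, against 23.0 and 14.2 CPM (-2.47 ± 0.32). LEU1 (YGL009C, chromosome VII, 476313 to 478652, minus strand), isopropylmalate isomerase of leucine synthesis, stood at 222.4 and 239.3 CPM, against 2001.6 and 1578.3 CPM (-2.95 ± 0.11, adjusted p = 1.07e-09). LEU2, the next enzyme of that pathway, stood at 98.9 and 105.5 CPM, against 569.2 and 429.6 CPM (-2.29 ± 0.12). All 4 genes stood lower in each library at 37 °C than in either at 30 °C, which the choice of the 10 required. BAT1, the mitochondrial branched-chain aminotransferase, had 400.7 and 416.6 CPM, against 1923.3 and 1766.9 CPM (-2.17 ± 0.07). GDH1, which fixes ammonium into glutamate, had 163.5 and 156.1 CPM, against 770.8 and 687.1 CPM (-2.19 ± 0.07). UTR2, a chitin transglycosylase of the bud neck, had 188.0 and 136.8 CPM, against 764.6 and 690.6 CPM (-2.17 ± 0.12). Nor could these overlap, as the choice left out genes that did. The remaining 3 were transporters, PHO89 for phosphate (-2.12 ± 0.30), MMP1 for S-methylmethionine (-2.07 ± 0.12) and SIT1 for iron-siderophores (-2.02 ± 0.12).

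**Figure D1:**
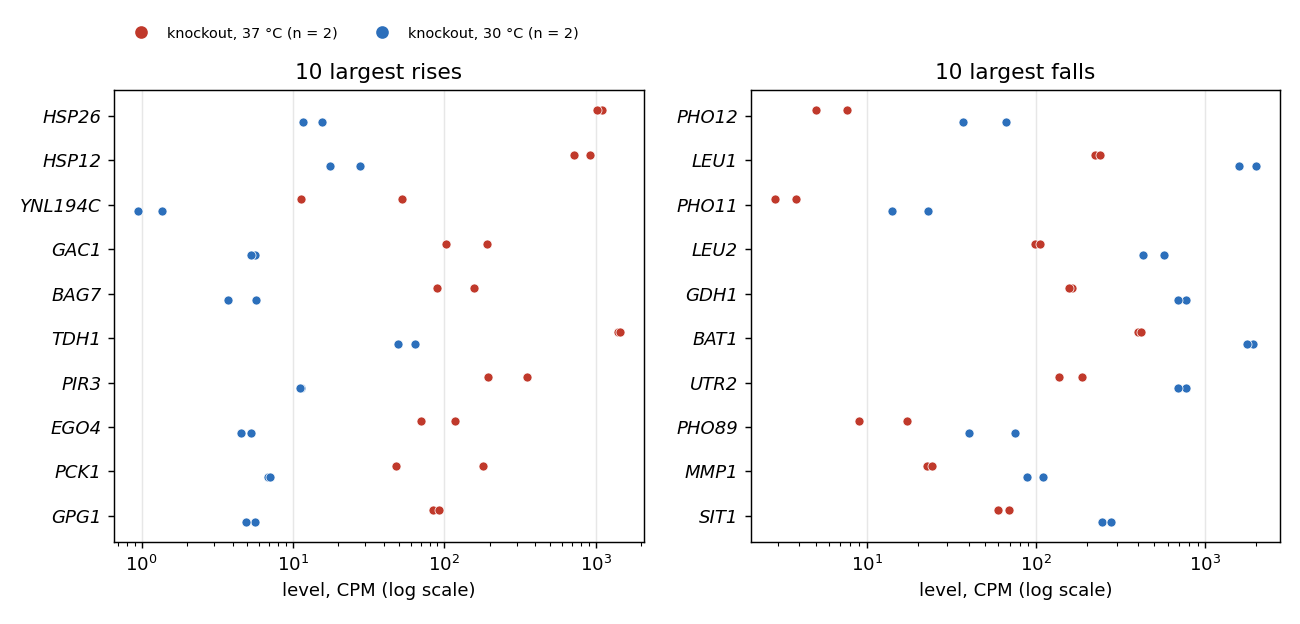
Levels in CPM on a log axis of the 10 genes with the largest rises and the 10 with the largest falls in the knockout, 1 point per library, the 2 libraries at 37 °C in red and the 2 at 30 °C in blue. The genes were taken only from those whose libraries did not overlap between the temperatures. HSP26 spans the widest gap, 1100.4 and 1013.4 CPM at 37 °C against 15.6 and 11.6 CPM at 30 °C.

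Genes were grouped in 69 lists by textbook function. The lists were written with earlier results of these data known, so their shares beside all genes only describe them. Of 22 small stress proteins 20 rose, as did 12 of 13 glycogen genes, 17 of 21 genes of gluconeogenesis and the glyoxylate cycle, and 10 of 12 vacuolar proteases, against 30.9% of all genes. Of 137 cytosolic ribosomal protein genes 132 fell, as did all 21 aminoacyl-tRNA synthetases, 14 of 15 genes of daughter cell separation and 10 of 11 histone genes, against 28.2% of all. Lists near the background included the pentose phosphate pathway, with 4 of 11 higher and 4 lower, and mitochondrial chaperones, with 4 of 13 higher and 3 lower. Tested against a 1.5-fold change, 57 of the list counts of 5 or more moved by over 1.5 times, so most lists hold many small changes. In all, 1035 of the 3347 called genes (30.9%) belonged to 1 or more lists.

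**Figure D2:**
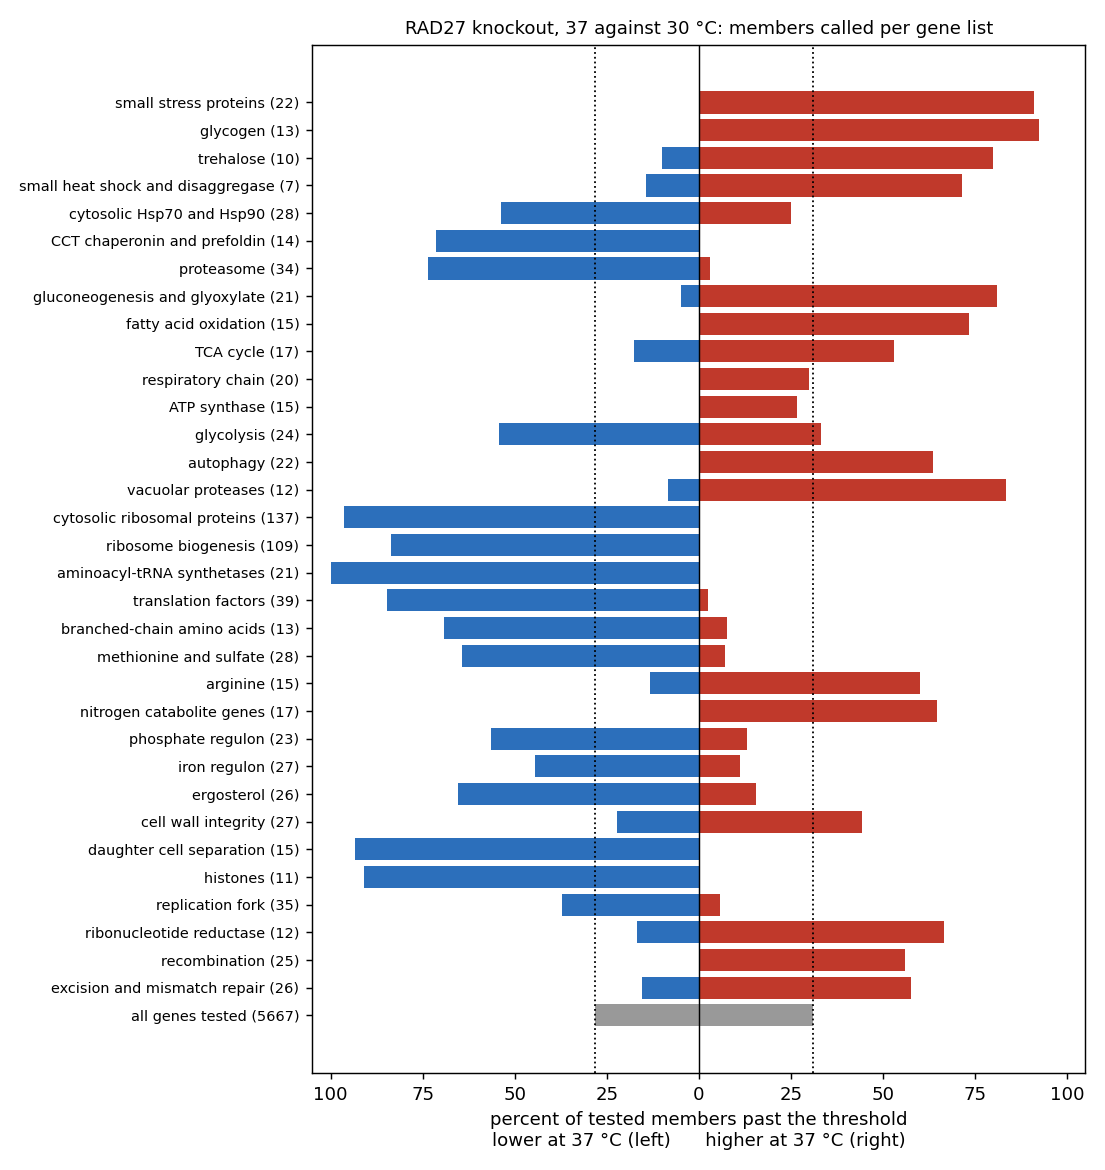
For selected gene lists, the percent of tested members past the threshold in the knockout, higher at 37 °C drawn to the right and lower to the left, with dotted lines at the shares over all genes tested (30.9% and 28.2%). Small stress proteins (90.9% higher) and glycogen genes (92.3% higher) stand at one end, aminoacyl-tRNA synthetases (all 21 lower) and cytosolic ribosomal proteins (96.4% lower) at the other.

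Chaperone genes split by class. Of 7 genes for small heat shock proteins and disaggregation 5 rose and 1 fell, with a median log2 fold change of 0.82, against 0.04 over all genes. HSP31, a chaperone and methylglyoxalase, had 125.4 and 112.5 CPM at 37 °C, against 28.9 and 32.5 CPM at 30 °C (1.95 ± 0.10). HSP42, a second small heat shock protein, had 171.9 and 175.8 CPM at 37 °C, against 92.0 and 104.4 CPM at 30 °C (0.82 ± 0.08). HSP104, the disaggregase that pulls proteins out of clumps, had 872.8 and 810.9 CPM, against 502.7 and 554.3 CPM (0.67 ± 0.07). All 3 rose without overlap, as did HSP30, a regulator of the plasma membrane proton pump (3.13 ± 0.25). Such non-overlap held for 79.3% of all genes tested.

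Cytosolic Hsp70, Hsp90 and their partners went down on balance, with 7 of 28 higher and 15 lower (median -0.30). SSA4, the heat-inducible Hsp70, stood at 219.9 and 199.4 CPM at 37 °C, against 68.6 and 72.7 CPM at 30 °C (1.57 ± 0.08, adjusted p = 1.41e-08), and SSE2, an Hsp70 exchange factor, at 173.9 and 212.6 CPM, against 66.3 and 66.2 CPM (1.55 ± 0.10). SSA2, the constitutive Hsp70 with a heat shock element before it, stood at 1390.9 and 1033.9 CPM, against 3087.1 and 2839.9 CPM (-1.29 ± 0.11, adjusted p = 1.02e-06). Its reads may be shared with its near-identical copy SSA1, which rose by 0.52 ± 0.08. YDJ1 and SIS1, the main Hsp40 partners of Hsp70, fell by 0.99 (SE 0.08) and 0.96 (SE 0.09) on the log2 scale. HSP82, the inducible Hsp90, had 1134.2 and 775.5 CPM at 37 °C, against 540.6 and 527.4 CPM at 30 °C (0.84 ± 0.13). SSA1 and HSP82 were chosen after their values were seen. The temperatures did not overlap for any of the 7 genes named here, as for 79.3% of all genes tested.

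The chaperonin CCT and its prefoldin partner, which fold actin and tubulin, had 0 of 14 genes higher and 10 lower (6 lower when scaled by library size alone), with CCT7 at -0.55 ± 0.06. Of 13 mitochondrial chaperone genes 4 rose (30.8%) and 3 fell (23.1%), against 30.9% and 28.2% of all genes. HSP60, the mitochondrial chaperonin, had 1161.3 and 947.1 CPM at 37 °C, against 992.8 and 926.6 CPM at 30 °C, which overlapped and did not pass (0.14 ± 0.09, adjusted p = 0.200). In the endoplasmic reticulum 8 of 19 folding genes rose and 3 fell, and 5 rose by DESeq2 or without replicate 1 at 30 °C. In the main fit 42.1% of these folding genes were higher and 15.8% lower, against 30.9% and 28.2% of all genes. ERO1, the oxidase that drives disulfide formation, rose by 0.68 ± 0.08. Of 34 proteasome genes 25 fell and 1 rose (9 lower when scaled by library size alone). PRE2, a catalytic subunit, had 242.7 and 253.3 CPM, against 376.8 and 394.7 CPM (-0.64 ± 0.06), while RPN4, the transcription factor of proteasome genes, had 167.1 and 256.1 CPM, against 150.3 and 142.5 CPM (0.53 ± 0.14), and did not pass without replicate 2 at 37 °C.

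Small stress proteins of the Msn2 and Msn4 programme rose as a group, 20 of 22 with none lower and a median log2 fold change of 1.93. Their summed level was 5280.2 and 6452.4 CPM at 37 °C, against 1263.0 and 1397.4 CPM at 30 °C, or 0.587% and 0.717% of counts, against 0.116% and 0.135%. DDR2, a stress protein named for its induction by DNA damage, had 46.9 and 62.4 CPM, against 2.34 and 6.07 CPM (3.69 ± 0.26, and 4.54 without replicate 2 at 30 °C). TMA10, a ribosome-associated protein, had 160.2 and 387.6 CPM, against 14.6 and 31.5 CPM (3.57 ± 0.39). Its log2 fold change lay at 2.78 without replicate 2 at 37 °C and at 4.23 without replicate 2 at 30 °C. MOH1, a protein linked to stationary phase, and RTC3, a stress protein, rose by 2.88 ± 0.25 and 2.87 ± 0.21. The 2 libraries at each temperature lay apart from the other pair in all 4 of these genes, as in 79.3% of all genes tested.

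Genes for the storage carbohydrates rose with them. Trehalose, a sugar that steadies proteins in heat, had 8 of 10 genes higher and 1 lower. TSL1, a regulatory subunit of the synthase complex, had 278.4 and 394.8 CPM at 37 °C, against 75.1 and 93.4 CPM at 30 °C (2.00 ± 0.15). TPS2, the phosphatase that completes trehalose, had 329.5 and 471.6 CPM, against 167.3 and 187.7 CPM (1.18 ± 0.14), and PGM2, which supplies glucose-1-phosphate, had 210.2 and 256.3 CPM, against 48.7 and 53.1 CPM (2.20 ± 0.11). TPS1, the synthase itself, rose less, by 0.69 ± 0.09, and was chosen after its values were seen. Of 13 glycogen genes 12 rose (median 1.26), those for making and those for breaking it alike. GLC3, the branching enzyme, had 208.3 and 515.8 CPM, against 31.8 and 42.9 CPM (3.28 ± 0.33, and 2.47 without replicate 2 at 37 °C). GPH1, the phosphorylase that degrades glycogen, had 371.4 and 502.1 CPM, against 44.1 and 61.5 CPM (3.05 ± 0.15), and GDB1, the debranching enzyme, rose by 1.78 ± 0.18. None of these genes overlapped between the temperatures, and neither did 79.3% of all genes tested.

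Glycolysis changed in its isozymes, with 8 of 24 genes higher (33.3%) and 13 lower (54.2%), a median of -0.37. Of all genes 30.9% were higher and 28.2% lower. GPM2, a minor phosphoglycerate mutase paralogue, had 56.9 and 57.4 CPM at 37 °C, against 7.02 and 6.83 CPM at 30 °C (3.04 ± 0.14). HXK1, the hexokinase of non-glucose growth, had 554.1 and 1230.5 CPM, against 179.5 and 204.9 CPM (2.22 ± 0.26, and 1.52 without replicate 2 at 37 °C), and ENO1, the enolase of such growth, had 2279.3 and 2405.7 CPM, against 640.8 and 592.5 CPM (1.93 ± 0.09, adjusted p = 7.90e-09). GLK1, glucokinase, rose by 1.49 ± 0.10, and a dubious reading frame overlaps it on the same strand. HXK2, the main hexokinase of glucose growth, had 647.7 and 645.5 CPM at 37 °C, against 1439.6 and 1441.1 CPM at 30 °C (-1.16 ± 0.06), and ENO2, the main enolase, had 6921.5 and 5948.4 CPM, against 13189.6 and 10982.2 CPM (-0.91 ± 0.11). Both were chosen after their values were seen. In the pentose phosphate pathway NQM1, a transaldolase paralogue, rose by 2.95 ± 0.16 and SOL4, a lactonase, by 2.70 ± 0.19.

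Among 13 hexose transporter genes tested, out of 21 in the table, 7 rose and 2 fell (median 0.98). HXT6, a high-affinity carrier, had 49.2 and 73.1 CPM at 37 °C, against 4.68 and 5.50 CPM at 30 °C (3.58 ± 0.23), and its near-identical copy HXT7 had 291.2 and 535.5 CPM, against 104.3 and 119.2 CPM (1.89 ± 0.22). HXT4, of moderately high affinity, had 714.1 and 1125.1 CPM, against 264.7 and 261.9 CPM (1.81 ± 0.17). MTH1, a repressor of transporter genes when glucose is low, rose by 1.71 ± 0.18. HXT3, of low affinity, had 1708.5 and 1772.3 CPM, against 1848.0 and 1879.4 CPM, and did not pass (-0.10 ± 0.07, adjusted p = 0.239). HXT1, the carrier of abundant glucose, had 243.7 and 231.8 CPM, against 635.1 and 658.3 CPM (-1.44 ± 0.07), and was chosen after its values were seen.

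Genes that glucose represses rose, with a difference in size between the replicates at 37 °C. Of 21 genes of gluconeogenesis and the glyoxylate cycle 17 rose and 1 fell (median 1.44), and their summed level was 666.2 and 1440.2 CPM at 37 °C, against 514.3 and 528.5 CPM at 30 °C. JEN1, the lactate carrier, had 28.6 and 83.3 CPM at 37 °C, against 9.36 and 9.30 CPM (2.60 ± 0.42, and 1.61 without replicate 2 at 37 °C). CAT8, the activator of these genes, had 26.4 and 56.0 CPM, against 8.97 and 6.83 CPM (2.39 ± 0.33, and 1.73 without that library). FBP1, fructose-1,6-bisphosphatase, had 8.97 and 47.7 CPM, against 3.90 and 6.83 CPM (2.42 ± 0.62, adjusted p = 0.00487). Without replicate 2 at 37 °C its value was 0.73 (adjusted p = 0.0519) and without replicate 1 at 37 °C 3.13, and the call was lost also without replicate 1 at 30 °C. Fatty acid oxidation, in the peroxisome, had 11 of 15 tested genes higher and none lower. POX1, acyl-CoA oxidase, its first step, had 6.59 and 11.1 CPM, against 1.17 and 2.28 CPM (2.35 ± 0.37), and ADR1, the activator of peroxisomal genes, rose by 1.13 ± 0.18.

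**Figure D3:**
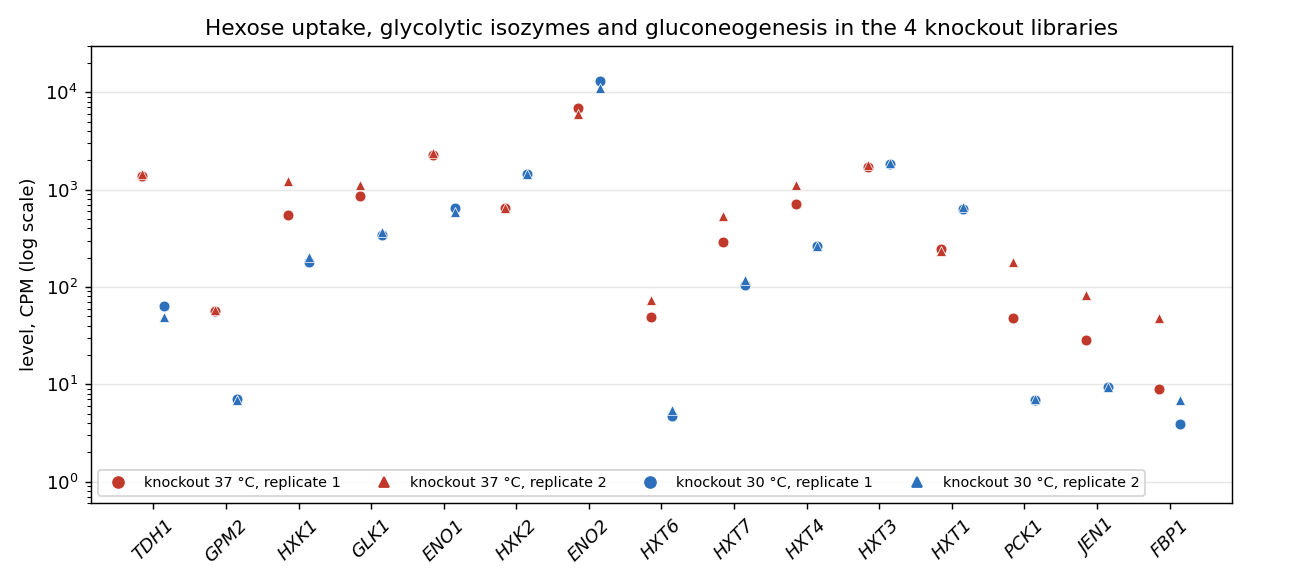
Levels in CPM on a log axis of hexose uptake, glycolytic isozyme and gluconeogenesis genes in the 4 knockout libraries, with the 2 libraries at 37 °C in red, the 2 at 30 °C in blue, circles for replicate 1 and triangles for replicate 2. HXK1 and ENO1 stand higher and HXK2 and ENO2 lower at 37 °C, and PCK1, JEN1 and FBP1 show the wide gap between the replicates at 37 °C (48.0 and 181.4 CPM for PCK1).

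In the 3 lists of respiration 26.7% to 52.9% of genes were higher at 37 °C in the knockout, against 30.9% of all genes, and 0 to 3 genes of each were lower. In the TCA cycle 9 of 17 rose (52.9%) and 3 fell (median 0.25), with SDH1, a subunit of succinate dehydrogenase, at 166.4 and 217.7 CPM at 37 °C, against 101.6 and 112.5 CPM at 30 °C (0.84 ± 0.11), and CIT1, citrate synthase, at 0.71 ± 0.11. ACO1, aconitase, was an exception at 409.9 and 446.8 CPM, against 955.4 and 940.9 CPM (-1.15 ± 0.07). Of 20 respiratory chain genes 6 rose (30.0%) and none fell (3 rose by DESeq2 and 14 when scaled by library size alone). Of 15 ATP synthase genes 4 rose (26.7%) and none fell (13 rose when scaled by library size alone). With that scaling 2803 of all 5667 genes rose, and the median of all genes was 0.27. The medians were then 0.31 for the respiratory chain and 0.38 for the ATP synthase. CYC7 and COX5B, the isoforms of cytochrome c and of a cytochrome oxidase subunit known from low oxygen, rose by 1.98 ± 0.16 and 1.03 ± 0.10. CYC1, the main cytochrome c, had 54.0 and 51.6 CPM, against 42.9 and 45.5 CPM, and did not pass (0.26 ± 0.11, adjusted p = 0.0605). Nor did ATP1, the ATP synthase alpha subunit, at 940.0 and 1015.2 CPM, against 908.0 and 894.9 CPM (0.12 ± 0.07, adjusted p = 0.155). QCR10, of the cytochrome bc1 complex, rose by 0.55 ± 0.10 and ATP20, of the ATP synthase, by 0.70 ± 0.15.

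Antioxidant genes moved in both directions, 11 of 25 higher and 6 lower, as did all genes, with 30.9% higher and 28.2% lower. The list's share of falls was near that of all genes and its share of rises above it. TSA2, a stress-induced peroxiredoxin, had 42.3 and 53.0 CPM at 37 °C, against 7.41 and 10.2 CPM at 30 °C (2.43 ± 0.19). GPX1, a glutathione peroxidase, rose by 2.12 ± 0.22, PRX1, the mitochondrial peroxiredoxin, by 1.53 ± 0.09 and CTT1, cytosolic catalase, by 1.25 ± 0.14. Of the 8 that did not pass, TSA1 and SOD1 are given as defining enzymes of the list. TSA1, the main peroxiredoxin, had 1299.0 and 1180.1 CPM, against 1381.5 and 1339.8 CPM (-0.13 ± 0.07, adjusted p = 0.110), and SOD1, superoxide dismutase, had 861.7 and 813.6 CPM, against 805.7 and 784.1 CPM (0.08 ± 0.06, adjusted p = 0.315).

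Genes of self-digestion rose. Of 22 autophagy genes 14 were higher and none lower (8 higher by DESeq2), with ATG1, the kinase that starts autophagy, at 62.8 and 73.9 CPM at 37 °C, against 41.7 and 43.3 CPM at 30 °C (0.69 ± 0.11). ATG29, a scaffold of the same complex, had 12.8 and 13 CPM, against 4.29 and 5.31 CPM (1.42 ± 0.22), and SET6 overlaps it on the opposite strand. Of 12 vacuolar protease genes, inhibitors included, 10 rose and 1 fell (median 0.84). TFS1, an inhibitor of carboxypeptidase Y, had 291.2 and 322.3 CPM, against 56.9 and 55.8 CPM (2.44 ± 0.08), and PRB1, vacuolar proteinase B, had 614.7 and 893.9 CPM, against 309.6 and 331.1 CPM (1.24 ± 0.13). UBI4, the stress-induced polyubiquitin gene, had 467.5 and 477.2 CPM, against 196.5 and 217.7 CPM (1.19 ± 0.07), while its list as a whole had 7 of 20 genes higher (13 when scaled by library size alone) and 3 lower. By library size alone 2803 of all 5667 genes rose, and the medians were 0.23 for this list and 0.27 for all genes.

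Genes for making ribosomes fell. Of 137 genes for cytosolic ribosomal proteins 132 fell and none rose, with a median of -0.87. Together they held 10.2% and 9.37% of counts at 37 °C, against 15.2% and 15% at 30 °C. RPL41A, a very short ribosomal protein, had 31.9 and 30.0 CPM at 37 °C, against 102.3 and 119.0 CPM at 30 °C (-1.84 ± 0.11, adjusted p = 3.95e-08). RPS28B, of the small subunit, fell by 1.35 (SE 0.12), and RPL1A, whose reads may be shared with its copy RPL1B, by 1.30 (SE 0.09), on the log2 scale. Of 109 ribosome biogenesis genes 91 fell and none rose (median -0.47). BFR2, of the small subunit processome, whose PAC motifs are shown above, had 122.5 and 90.4 CPM, against 212.5 and 235.7 CPM (-1.08 ± 0.11). SDA1, a factor of large subunit export, had 270.9 and 233.0 CPM, against 500.4 and 484.9 CPM (-0.97 ± 0.08). The temperatures did not overlap in any of these genes, nor in 79.3% of all genes tested.

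The polymerases that serve ribosomes and the translation machinery fell with them. Of 15 RNA polymerase I genes 10 fell and 1 rose, and of 21 RNA polymerase III genes 11 fell and 3 rose (5 and 7 lower when scaled by library size alone). RPA34, of polymerase I, fell by 0.61 (SE 0.08) and RPC17, of polymerase III, by 1.09 (SE 0.16), while MAF1, the repressor of polymerase III, had 61.5 and 65.5 CPM at 37 °C, against 40.9 and 48.4 CPM at 30 °C (0.51 ± 0.11). All 21 aminoacyl-tRNA synthetase genes fell (median -0.51), with THS1, for threonine, at 864.6 and 801.6 CPM, against 1566.5 and 1571.3 CPM (-0.91 ± 0.07). Translation factors fell in 33 of 39 cases with 1 higher. TEF4, a subunit of elongation factor eEF1B whose intron holds a small nucleolar RNA, had 897.5 and 861.8 CPM, against 2146.1 and 1804.3 CPM (-1.17 ± 0.08). Of 73 mitochondrial ribosomal protein genes 21 were higher (28.8%), near the 30.9% of all genes, and 3 lower (4.11%), against 28.2% of all genes. That count depended on the processing, with 12 higher in a fit of the 4 knockout libraries alone or without replicate 1 at 37 °C, 6 by DESeq2 and 45 when scaled by library size alone. The last scaling had 2803 of all 5667 genes higher, with medians of 0.37 for this list and 0.27 for all genes. MRP49 stood at 30.6 and 29.9 CPM, against 12.3 and 15 CPM (1.14 ± 0.14).

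Amino acid synthesis split by pathway. Branched-chain genes fell in 9 of 13 cases with 1 higher (median -0.88), and their summed level was 6718.1 and 7267.6 CPM at 37 °C, against 14829.0 and 12913.2 CPM at 30 °C. Besides LEU1, LEU2 and BAT1, OAC1, a mitochondrial carrier for isopropylmalate, had 90.1 and 83.2 CPM, against 302.9 and 282.0 CPM (-1.76 ± 0.11), and ILV3, dihydroxyacid dehydratase, had 848.7 and 900.1 CPM, against 2211.4 and 1916.8 CPM (-1.24 ± 0.08). LEU4, the first and feedback-regulated step of leucine synthesis, had 944.6 and 1194.9 CPM, against 1118.4 and 950.4 CPM, and did not pass (0.05 ± 0.10, adjusted p = 0.709). The temperatures overlapped for LEU4 alone among these genes, while 79.3% of all genes tested did not overlap. Methionine and sulfate genes fell in 18 of 28 cases with 2 higher (median -0.49). MET6, methionine synthase, had 247.3 and 211.7 CPM, against 994.8 and 823.4 CPM (-1.99 ± 0.10), and MET17, homocysteine synthase, had 213.3 and 208.7 CPM, against 764.0 and 675.0 CPM (-1.77 ± 0.08), with a reading frame overlapping it on the opposite strand. MUP1, the methionine permease, fell by 1.41 (SE 0.08) on the log2 scale.

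Of 15 genes of arginine metabolism 9 rose and 2 fell. ARG3, ornithine transcarbamylase, had 72.9 and 80.7 CPM at 37 °C, against 18.3 and 19.2 CPM at 30 °C (2.03 ± 0.14), and ARG1, argininosuccinate synthase, had 573.0 and 713.4 CPM, against 395.3 and 308.4 CPM (0.87 ± 0.15). CAR1, arginase, which breaks arginine down, had 145.5 and 150.3 CPM, against 274.7 and 288.1 CPM (-0.93 ± 0.07). Genes for using poor nitrogen sources rose in 11 of 17 tested cases with none lower (7 higher by DESeq2 or without replicate 2 at 30 °C). OPT2, an oligopeptide transporter, UGA2, of 4-aminobutyrate use, and PUT1, proline oxidase, rose by 2.33 ± 0.19, 2.03 ± 0.10 and 1.64 ± 0.16. GAP1, the general amino acid permease, had 26.9 and 39.3 CPM, against 32.9 and 35.7 CPM, overlapped and did not pass (-0.04 ± 0.16, adjusted p = 0.826). GDH2, which releases ammonium from glutamate, had 167.9 and 373.2 CPM, against 68.4 and 78.0 CPM (1.89 ± 0.26, and 1.19 without replicate 2 at 37 °C), and GLN1, glutamine synthetase, had 1392.0 and 1255.8 CPM, against 666.1 and 741.6 CPM (0.91 ± 0.07). Purine synthesis genes fell in 12 of 17 tested cases with 1 higher, and IMD2, IMP dehydrogenase, had 82.2 and 102.8 CPM, against 193.8 and 167.0 CPM (-0.96 ± 0.10).

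Phosphate genes fell in 13 of 23 cases with 3 higher (median -0.60). PHO89, the sodium-phosphate symporter, had 8.97 and 17.4 CPM at 37 °C, against 75.6 and 40.2 CPM at 30 °C, and SPL2, a brake on low-affinity uptake, 22.5 and 15.9 CPM, against 45.4 and 29.2 CPM (-0.96 ± 0.22). PHO5, the main secreted acid phosphatase, had 133.1 and 83.2 CPM, against 292.0 and 141.2 CPM (-1.01 ± 0.27). Its value was -0.39 without replicate 1 at 30 °C, where it did not pass (adjusted p = 0.181), and it did not pass by DESeq2. PHO84, the high-affinity phosphate carrier, had 1098.5 and 622.1 CPM, against 1485.4 and 878.0 CPM, overlapped and did not pass (-0.46 ± 0.23, adjusted p = 0.103), although it did with a replicate block, without replicate 2 at 30 °C or without replicate 1 at 37 °C, and an antisense RNA gene overlaps it. In both temperatures replicate 1 stood higher than replicate 2 for PHO5, PHO84 and SPL2. PHM8, a nucleotidase of the regulon, went against the others at 166.0 and 184.8 CPM, against 34.1 and 36.1 CPM (2.32 ± 0.10).

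Iron genes fell in 12 of 27 cases (44.4%) with 3 higher (11.1%), against 28.2% and 30.9% of all genes. Their median of -0.23 became 0.01 when scaled by library size alone. FRE1, the ferric reductase of the cell surface, had 199.9 and 123.7 CPM at 37 °C, against 666.9 and 556.4 CPM at 30 °C (-1.92 ± 0.22), FET3, the iron uptake oxidase, had 400.0 and 316.7 CPM, against 1019.3 and 1076.2 CPM (-1.55 ± 0.10), and ISU2, an iron-sulfur scaffold, fell by 1.82 (SE 0.12) on the log2 scale. Ergosterol genes fell in 17 of 26 cases with 4 higher (11 lower when scaled by library size alone). ERG5 and ERG3, desaturases late in that pathway, fell by 1.03 (SE 0.09) and 0.91 (SE 0.06). OLE1, the fatty acid desaturase, had 2678.7 and 3665.2 CPM, against 1614.3 and 1600.7 CPM (0.98 ± 0.12), and OPI3, of phosphatidylcholine synthesis, rose by 1.26 ± 0.09.

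Cell wall integrity genes, targets of the Slt2 kinase pathway among them, rose in 12 of 27 cases (44.4%) and fell in 6 (22.2%). Of all genes 30.9% rose and 28.2% fell. Scaled by library size alone, 2 wall integrity genes were lower. PST1, a wall repair protein, had 770.9 and 1211.3 CPM at 37 °C, against 194.2 and 179.9 CPM at 30 °C (2.41 ± 0.16). GSC2, the inducible glucan synthase, had 960.1 and 1111.9 CPM, against 271.2 and 246.5 CPM (2.00 ± 0.08), while FKS1, the constitutive one, had 2231.7 and 2105.9 CPM, against 2142.8 and 2140.8 CPM, overlapped and did not pass (0.02 ± 0.08, adjusted p = 0.853). MTL1, a wall stress sensor, and YPS3, a surface protease, rose by 2.19 ± 0.12 and 2.07 ± 0.11. Of 18 structural wall protein genes tested 8 rose (44.4%) and 6 fell (33.3%), against 30.9% and 28.2% of all genes. SPI1, a wall protein of stationary phase, rose by 2.83 ± 0.15.

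Genes that mother and daughter cells use to separate fell in 14 of 15 cases with none higher (median -0.69). DSE4, a glucanase secreted by daughters, had 130.9 and 89.9 CPM at 37 °C, against 324.6 and 295.7 CPM at 30 °C (-1.49 ± 0.12). EGT2, a wall protein of the same stage, had 360.6 and 286.3 CPM, against 814.7 and 754.1 CPM (-1.28 ± 0.09), and CTS1, the chitinase that cuts the septum, had 580.5 and 574.7 CPM, against 1129.9 and 1088.9 CPM (-0.94 ± 0.07). None of the 3 overlapped, and neither did 79.3% of all genes tested. Of 16 genes for cyclins, their kinase and its inhibitors 9 fell and 2 rose. Among G1/S targets and their regulators 11 of 22 fell and 1 rose, and among G2/M and spindle genes 15 of 30 fell and 5 rose (7 and 7 when scaled by library size alone, where the median of -0.21 became 0.03). PCL1, a G1 cyclin, had 34.8 and 28.9 CPM, against 83.8 and 98.5 CPM (-1.52 ± 0.14), and CLB1, a mitotic cyclin, had 214.7 and 203.5 CPM, against 98.2 and 85.6 CPM (1.19 ± 0.08, adjusted p = 1.72e-07). CLN1, a G1/S cyclin chosen after its values were seen, had 106.5 and 102.8 CPM, against 98.1 and 115.8 CPM, and did not pass (-0.03 ± 0.09, adjusted p = 0.770). FAR1, the G1 inhibitor of the pheromone response, fell by 1.46 (SE 0.10). Histone genes, transcribed in S phase, fell in 10 of 11 cases (median -0.76), with HTA2 and HTB2, a divergently transcribed pair of core histone genes, at -1.16 ± 0.12 and -1.13 ± 0.11.

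Of 12 tested genes of Okazaki fragment maturation, the deleted RAD27 left out, 1 rose and 3 fell, so 8 did not pass. In the same fit 30.9% of all genes rose and 28.2% fell. The list's share of falls was thus near that of all genes, and its share of rises below it. Scaled by library size alone, 5 of the 12 rose and none fell, and the list's median of -0.06 became 0.17. With that scaling 2803 of all 5667 genes rose and the median of all genes was 0.27. The list's median thus lay below that of all genes. DNA2, the nuclease and helicase that cuts long flaps, had 89.9 and 81.5 CPM at 37 °C, against 83.0 and 83.5 CPM at 30 °C, and did not pass (0.04 ± 0.08, adjusted p = 0.689). POL30, the sliding clamp PCNA, had 119.4 and 115.7 CPM, against 130.6 and 158.1 CPM (-0.30 ± 0.09). Its call was lost without replicate 2 at 30 °C and under library size alone. CDC9, the ligase that joins the fragments, had 141.0 and 147.0 CPM, against 165.5 and 167.0 CPM (-0.21 ± 0.07), lost by DESeq2 or without either library at 30 °C and at 0.03 under library size alone. RNH201, of RNase H2, which removes RNA primers, fell by 0.50 (SE 0.11) and lost its call under library size alone, and ELG1, the PCNA unloader, rose by 0.31 ± 0.11 and lost it in 6 settings besides the 1.5-fold test. Replication fork genes fell in 13 of 35 cases with 2 higher, of which 8 fell by DESeq2, 7 without replicate 2 at 30 °C and 2 under library size alone, where the median of -0.14 became 0.09. In the main fit 37.1% of the fork genes were lower and 5.71% higher, against 28.2% and 30.9% of all genes. RFC1, the large clamp loader subunit, fell by 0.50 (SE 0.08).

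Ribonucleotide reductase, which makes deoxynucleotides and is induced by the checkpoint, rose. Of 12 genes for the enzyme and its regulators 8 rose and 2 fell (median 0.51). RNR3, the damage-inducible large subunit, had 273.5 and 310.3 CPM at 37 °C, against 73.3 and 51.2 CPM at 30 °C (2.23 ± 0.13, adjusted p = 3.08e-08). RNR4, a small subunit, had 3433.1 and 3948.5 CPM, against 1795.4 and 1602.4 CPM (1.12 ± 0.09), and RNR2, the other, had 2906.6 and 3212.9 CPM, against 1667.5 and 1447.5 CPM (0.97 ± 0.09). HUG1, a small inhibitor induced by damage, had 139.7 and 171.8 CPM, against 42.3 and 35.5 CPM (2.00 ± 0.12). RFX1, the repressor of these genes, rose by 1.07 ± 0.11. SML1, the inhibitor that the checkpoint degrades as a protein, had 256.3 and 250.2 CPM, against 288.3 and 273.8 CPM, and did not pass (-0.15 ± 0.07, adjusted p = 0.0698). Of these SML1 alone did not pass. None overlapped between the temperatures, and neither did 79.3% of all genes tested.

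Of 19 damage checkpoint genes 4 rose (21.1%) and 2 fell (10.5%), against 30.9% and 28.2% of all genes. Scaled by library size alone, 12 of the 19 rose and none fell, where 2803 of all 5667 genes rose. TEL1, the ATM kinase, had 125.4 and 130.9 CPM at 37 °C, against 77.2 and 67.9 CPM at 30 °C (0.82 ± 0.08), and DUN1, the kinase that acts on the reductase, had 84.9 and 84.9 CPM, against 56.5 and 64.7 CPM (0.49 ± 0.10). RAD53, the kinase at the centre of the checkpoint, had 65.9 and 64.1 CPM, against 54.6 and 59.0 CPM, and did not pass (0.19 ± 0.09, adjusted p = 0.0758). In recombination 14 of 25 genes rose with none lower (8 rose by DESeq2), and in excision and mismatch repair 15 of 26 rose and 4 fell. RAD54, the translocase of strand exchange, had 176.5 and 192.0 CPM, against 130.6 and 117.3 CPM (0.57 ± 0.08), SLX4, a nuclease scaffold, rose by 0.69 ± 0.10, and RAD52, the recombination mediator, had 118.1 and 114.4 CPM, against 132.9 and 121.5 CPM, and did not pass (-0.13 ± 0.08, adjusted p = 0.179). PHR1, photolyase, MLH3, a mismatch repair protein, and RAD16, of nucleotide excision repair, rose by 1.39 ± 0.17, 1.05 ± 0.14 and 0.95 ± 0.09.

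Transcription regulators of stress and nutrients rose in 17 of 33 cases (51.5%) and fell in 6 (18.2%), against 30.9% and 28.2% of all genes. Scaled by library size alone, 3 of them were lower. USV1, a regulator of growth on non-fermentable carbon, had 92.1 and 208.5 CPM at 37 °C, against 12.9 and 12.9 CPM at 30 °C (3.55 ± 0.35, and 2.83 without replicate 2 at 37 °C). XBP1, a repressor of cyclin genes under stress, had 122.3 and 258.3 CPM, against 40.0 and 49 CPM (2.10 ± 0.27, and 1.45 without that library), and NRG1, a repressor of glucose-repressed genes, rose by 1.42 ± 0.19. Replicate 2 at 37 °C stood higher than replicate 1 in all 3.

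Markers of the mating types and of sporulation were read as a check on the cells. Of 7 genes expressed in MATa cells, 6 fell and 1 rose, with STE2, the receptor for alpha factor, at 249.1 and 207.9 CPM at 37 °C, against 551.1 and 533.1 CPM at 30 °C (-1.25 ± 0.09), and BAR1, the protease that destroys alpha factor, at -1.55 ± 0.12. Summed over the list, the level was 722.4 and 596.3 CPM, against 1577.4 and 1473.0 CPM. Of 4 MATalpha markers 2 passed the filter and both were higher, their sums at 64.1 and 64.5 CPM, against 40.2 and 34.9 CPM. STE3, the receptor for a-factor, had 8.24 and 9.45 CPM, against 4.87 and 2.28 CPM (1.31 ± 0.31, and 1.95 without replicate 1 at 30 °C), and SAG1, alpha-agglutinin, rose by 0.69 ± 0.12. Sporulation markers rose in 7 of 9 tested cases (4 with a filter of at least 5 CPM), 77.8% against 30.9% of all genes. Their summed levels were only 76.7 and 76.6 CPM, against 37.4 and 40.2 CPM. SPR3, a sporulation septin, had 3.30 and 2.70 CPM, against 0.390 and 0.759 CPM, at or near the value of 3 counts at 30 °C. Its counts there lay under the filter's minimum of 10, so it was tested through other groups. A gene let in that way could hardly be called lower at 37 °C, which favours rises in this count. NDT80, the activator of middle meiosis, had 5.67 and 7.26 CPM, against 1.95 and 1.90 CPM (1.74 ± 0.30). IME1, the inducer of meiosis, had 12.1 and 9.45 CPM, against 9.36 and 6.45 CPM, and did not pass (0.44 ± 0.24, adjusted p = 0.13). The part of these markers in the other results was not tested.

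The same temperature step changed fewer genes in wild type, 891 higher (15.7%) and 967 lower (17.1%), in a fit that shares 1 estimate of the spread over all 4 groups. Of the 1751 genes higher in the knockout, 527 were higher in wild type too (30.1% of the knockout list and 59.1% of the wild type list). Of the 1596 lower ones, 625 were lower in wild type too (39.2% and 64.6%). Opposite calls numbered 164 (2.89% of genes tested), of which 86 were higher in the knockout and lower in wild type and 78 the reverse. The difference between the responses, tested as an interaction, passed for 1902 genes, 930 positive (16.4%) and 972 negative (17.2%). Of the genes higher in the knockout 757 (43.2%) had a positive interaction, and of those lower 797 (49.9%) a negative one. All 164 opposite calls passed in the interaction, which their choice by opposite calls in the same fit made nearly certain.

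Among many, though not all, stress genes the knockout's response was the larger. The interaction did not pass for HSP104 (0.16), HSP42 (0.20), SSA4 (0.18) or UBI4 (-0.11), nor for 8 of the 22 small stress proteins. Small stress proteins had a positive interaction in 14 of 22 cases and none negative, with 20 higher in the knockout and 8 in wild type, and glycogen genes in 10 of 13. HSP26 had 75.4 and 72.3 CPM in wild type at 37 °C, against 16.7 and 14.2 CPM at 30 °C (2.26 ± 0.13), so the knockout's rise exceeded it by 4.03 ± 0.20 (adjusted p = 1.19e-07). Hsp70 and Hsp90 genes went the other way, with 2 of 28 positive and 16 negative. HSP82 had 1409.6 and 1309.0 CPM in wild type at 37 °C, against 294.9 and 253.9 CPM at 30 °C, and its interaction was -1.47 ± 0.19 (adjusted p = 1.57e-04). SSA1 and SSA2 had interactions of -1.56 ± 0.12 and -1.64 ± 0.16. HSP30, RGI1, a protein of respiratory growth, EGO4 and PIR3 had the other largest positive interactions among genes that passed and averaged at least 10 CPM, 4.11 ± 0.39, 4.09 ± 0.67, 4.55 ± 0.65 and 4.40 ± 0.65. RGI1 stood at 144.4 and 322.3 CPM in the knockout at 37 °C, against 15.6 and 20.9 CPM at 30 °C (3.68 ± 0.34, and 2.98 without replicate 2 at 37 °C), and at 10.4 and 13.2 CPM in wild type at 37 °C, against 12.3 and 19.0 CPM at 30 °C.

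Respiratory genes differed between the genotypes. Of 20 respiratory chain genes 19 had a positive interaction, with 0 falls in the knockout and 18 in wild type (median 0.07 in the knockout and -0.70 in wild type). Of 15 ATP synthase genes 14 had one, with 0 falls in the knockout and 13 in wild type. ATP1 fell in wild type to 633.3 and 659.9 CPM at 37 °C, against 950.6 and 1019.3 CPM at 30 °C, an interaction of 0.72 ± 0.10. TCA cycle genes were positive in 11 of 17 cases and negative in 1.

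The 164 opposite calls were 2.89% of genes tested. The lists with the highest numbers were the phosphate regulon (8 of 23), daughter cell separation (8 of 15) and arginine metabolism (7 of 15). Then came the respiratory chain (4 of 20), Hsp70 and Hsp90 (4 of 28), the ATP synthase (3 of 15) and the TCA cycle (3 of 17). Ribosome biogenesis had 3 of 109, near the share of all genes. Among the opposite calls, respiratory chain, ATP synthase and TCA cycle genes were higher in the knockout. Those of phosphate use, cell separation, Hsp70 and Hsp90, and ribosome biogenesis were lower. In arginine metabolism 6 were higher and 1 lower in the knockout. The phosphate regulon had 15 of 23 negative interactions and 1 positive, with 3 rises and 13 falls in the knockout and 14 rises and 1 fall in wild type. PHO89 had 25.8 and 18.9 CPM in wild type at 37 °C, against 2.01 and 2.06 CPM at 30 °C (3.44 ± 0.56), an interaction of -5.55 ± 0.62 (adjusted p = 5.12e-05). At 30 °C PHO89 stood at 75.6 and 40.2 CPM in the knockout, above both wild type libraries. Daughter separation genes had 12 of 15 negative, with 0 rises in the knockout and 9 in wild type, and DSE4 had 588.7 and 583.6 CPM in wild type at 37 °C, against 371.1 and 348.6 CPM at 30 °C (interaction -2.20 ± 0.17). CAR2, ornithine aminotransferase, had 202.1 and 180.2 CPM in the knockout at 37 °C, against 266.7 and 236.6 CPM at 30 °C (-0.40 ± 0.09, lost under library size alone), and 352.3 and 385.9 CPM in wild type at 37 °C, against 99.9 and 113.5 CPM at 30 °C (interaction -2.19 ± 0.13). ARG1 had 35.1 and 33.4 CPM in wild type at 37 °C, against 194.0 and 127.5 CPM at 30 °C (interaction 3.10 ± 0.26), and CLB1 115.2 and 124.9 CPM, against 169.5 and 181.2 CPM (interaction 1.73 ± 0.12).

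**Figure D4:**
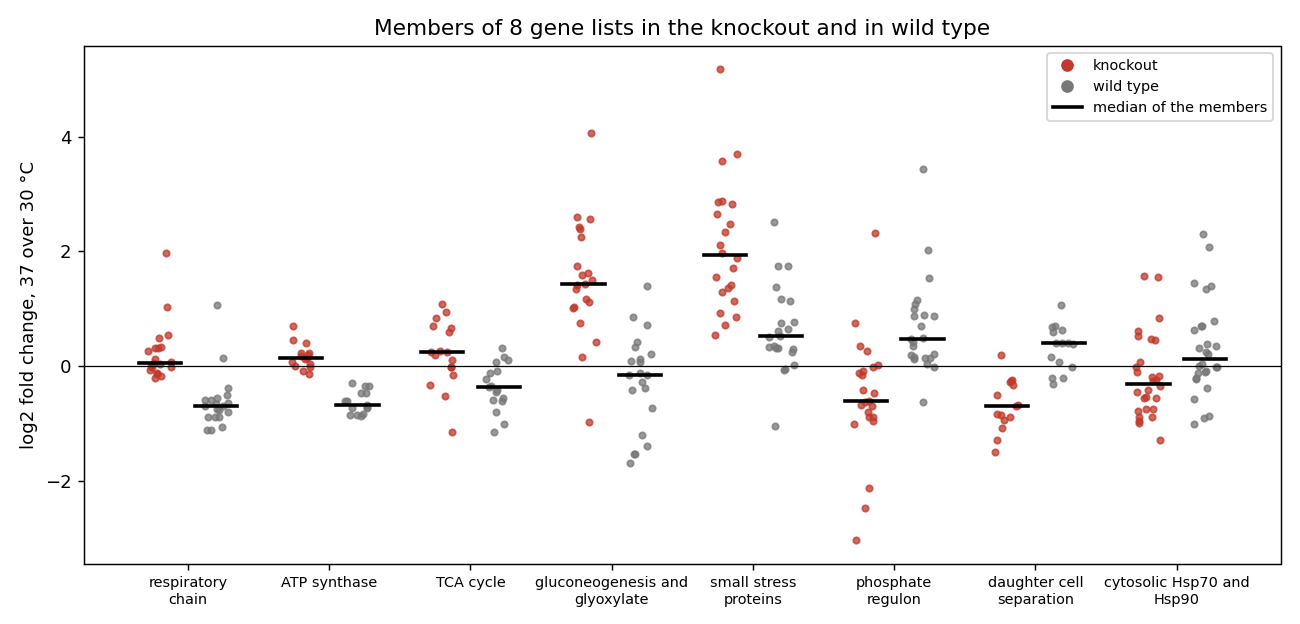
Log2 fold changes, 37 over 30 °C, of each tested member of selected gene lists in the knockout (red) and in wild type (grey), with a bar at each list's median. Respiratory chain genes centre on 0.07 in the knockout and -0.70 in wild type, the phosphate regulon on -0.60 and 0.48, and daughter cell separation on -0.69 and 0.40.

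**Figure D5:**
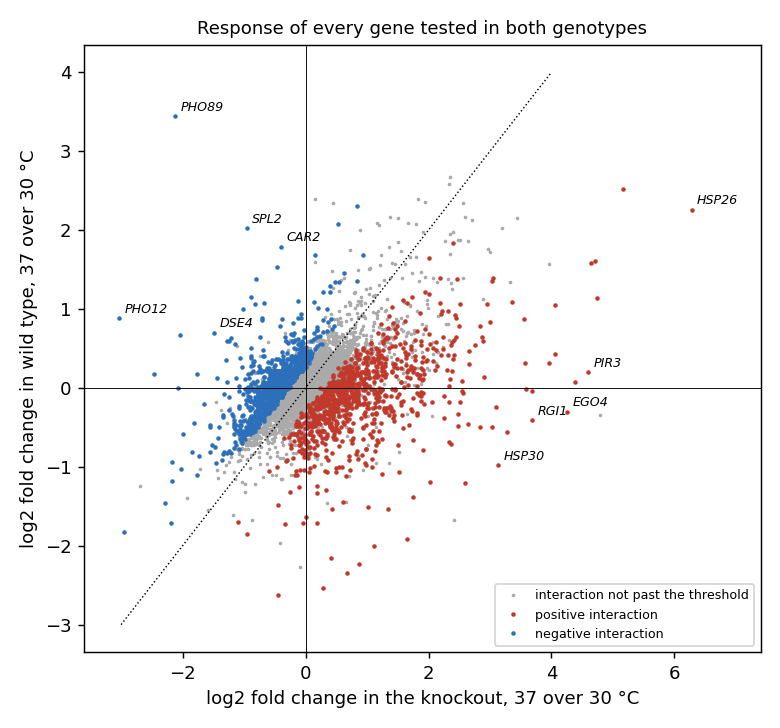
Each point is 1 of the 5667 genes tested, with its log2 fold change in the knockout on the horizontal axis and in wild type on the vertical axis, red for a positive and blue for a negative interaction past the threshold, grey otherwise, and a dotted line where both are equal. HSP26 lies far right at 6.28 in the knockout and 2.26 in wild type, and PHO89 far up and left at -2.12 and 3.44.

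In ribonucleotide reductase 6 of 12 genes had a positive interaction and 1 a negative one. RNR4 had 619.6 and 622.3 CPM in wild type at 37 °C, against 602.2 and 695.7 CPM at 30 °C, and did not pass there (-0.06, adjusted p = 0.645), with an interaction of 1.18 ± 0.13 (adjusted p = 4.98e-05). RNR3 had 15.3 and 17 CPM in wild type at 37 °C, against 12.7 and 10.3 CPM at 30 °C, an interaction of 1.74 ± 0.29. For RNR3 and RNR4 each knockout library lay above each wild type library at the same temperature. DUN1 fell in wild type to 23.3 and 27.4 CPM at 37 °C, against 40.1 and 39.6 CPM at 30 °C, an interaction of 1.14 ± 0.16. No tested gene of Okazaki fragment maturation, RAD27 left out, passed in the interaction, 0 of 12 by edgeR with TMM, DESeq2 or limma-voom. By edgeR with TMM 16.4% of all genes were positive and 17.2% negative. At an unadjusted edgeR p under 0.05 there were 3 of the 12. The null was not firm in every setting, as POL30 (0.30) passed under library size alone. Over all alternatives POL30 ran from 0.17 to 0.45 and DNA2 from -0.35 to -0.14.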

How the data were processed

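Messenger RNA was sequenced from 8 libraries. The deposited values are whole-number read counts per gene, made by the authors with STAR for alignment and HTSeq for counting on builds R64 and sacCer3, per the submitters' processing notes. Versions, strand use and the treatment of multi-mapping reads are not stated in those notes. Total RNA was taken with Trizol and made into libraries with Kapa mRNA HyperPrep, per the labels' protocols. The genome sequencing of the series was not used here.

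The test was edgeR 4.0.16's quasi-likelihood F test in R 4.3.3, on all 8 libraries with 1 coefficient per group, TMM scaling and filterByExpr by group (minimum count 10, minimum total 15). Biological variation came to 6.19% (coefficient), on 4 residual and a median of 8.65 prior degrees of freedom. p-values were adjusted by Benjamini and Hochberg over 5667 genes, threshold 0.05. SE is the absolute log2 fold change over the square root of F. CPM divides counts by the TMM-scaled total of tested genes. Names of 6008 of 6692 genes matched RefSeq's R64 annotation, and the rest held 0.164% of counts. Copies were found with blastn 2.17.0 at 95% identity over 50% of the length. The fit was checked on simulated data. Alternatives were those of the closing section, among them DESeq2 1.42.0 and limma 3.58.1. Tables and figures used Python 3.11.15, pandas 2.3.3 and matplotlib 3.10.9.

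The groups, lists and comparisons were chosen with earlier results of these data known. RAD27, without counts in the knockout, was kept out of the list of Okazaki fragment maturation. The rule for naming took RAD27, the 10 largest rises and falls in the knockout that passed the test, averaged at least 10 CPM and did not overlap, up to 5 members of each list with the largest changes, a defining member that did not move, and the 5 largest interactions each way among genes that passed and averaged at least 10 CPM. Genes outside it are named as chosen after their values were seen.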

Additional observations from a re-analysis of the deposited data

Results flagged for a closer look

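The response to 37 °C differed between the genotypes by a test of the difference itself, the interaction of genotype and temperature in edgeR's quasi-likelihood fit over all 8 libraries, for 930 genes with a positive and 972 with a negative value. A positive value means that the log2 fold change of 37 over 30 °C was higher in the knockout than in wild type. Of 136 named genes with the difference past the threshold, 108 passed under every alternative except the test against a 1.5-fold change, and 28 lost the call without 1 or more single libraries. Those 28 were BAG7, PCK1, PHO11, TMA10, TSL1, HXK1, ENO2, ADR1, CYC1, TSA2, GPX1, MAF1, MRP49, PUT1, GSC2, FAR1, RFC1, HUG1, RFX1, SML1, TEL1, RAD54, RAD52, USV1, XBP1, STE2, SAG1 and NDT80, whose calls are therefore less firm. The values are on the log2 scale, and no cause was weighed for any of them.

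Among small heat shock and stress proteins the positive values were 4.55 for EGO4, 4.11 for HSP30, 4.03 for HSP26, 3.73 for DDR2, 3.26 for TMA10, 2.65 for HSP12, 2.22 for RTC3 and 1.20 for HSP31. Among Hsp70, Hsp90 and chaperonin genes the positive value was 1.30 for SSE2. Negative ones were -1.64 for SSA2, -1.56 for SSA1, -1.47 for HSP82, -0.98 for YDJ1, -0.95 for HSP60 and -0.40 for CCT7. Among trehalose and glycogen genes the positive values were 3.84 for GLC3, 3.59 for GAC1, 1.77 for PGM2, 1.66 for GPH1, 1.38 for GDB1, 1.28 for TPS2, 0.81 for TSL1 and 0.64 for TPS1. Among glycolysis, hexose uptake and the pentose phosphate pathway the positive values were 3.59 for HXT6, 3.07 for TDH1, 3.01 for GPG1, 2.15 for HXT4, 2.13 for ENO1, 1.89 for NQM1, 1.79 for HXT7 and 1.68 for GPM2. Closer to 0 were 1.48 for MTH1, 1.25 for HXK1 and 0.71 for GLK1. Below 0 stood -1.56 for HXT1, -0.66 for HXK2 and -0.51 for ENO2. Among genes of alternative carbon sources and respiration the positive values were 4.09 for RGI1, 3.79 for JEN1, 3.63 for PCK1, 2.19 for CAT8, 1.64 for SDH1, 1.56 for ATP20, 1.29 for QCR10 and 0.99 for ADR1. Smaller values were 0.89 for COX5B, 0.83 for CIT1, 0.72 for ATP1 and 0.63 for CYC1. Among antioxidant and proteolysis genes the positive values were 1.71 for ATG29, 1.55 for TFS1, 1.54 for GPX1, 1.5 for TSA2, 0.99 for PRB1, 0.98 for PRX1, 0.98 for CTT1 and 0.79 for RPN4. ATG1 had 0.69. PRE2 had -0.59. Among ribosome and translation genes the positive values were 0.64 for MRP49 and 0.55 for MAF1. Negative values reached -1.10 for BFR2, -1.03 for RPL41A, -0.99 for RPS28B, -0.83 for RPC17, -0.77 for SDA1, -0.73 for TEF4 and -0.45 for THS1.

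Among amino acid, nitrogen and nucleotide genes the positive values were 3.22 for ARG3, 3.10 for ARG1, 1.67 for GAP1, 1.56 for GDH2, 1.48 for UGA2, 1.26 for PUT1, 0.89 for IMD2 and 0.71 for GLN1. The negative values here were -2.19 for CAR2, -2.07 for MMP1, -1.95 for MET17, -1.41 for MET6, -1.14 for LEU1, -0.99 for BAT1, -0.91 for MUP1 and -0.83 for LEU2. Nearer to 0 lay -0.78 for CAR1, -0.64 for OAC1 and -0.48 for GDH1. Among phosphate, iron and lipid genes the positive values were 1.90 for PHM8, 0.81 for OLE1 and 0.66 for OPI3. In the other direction stood -5.55 for PHO89, -3.91 for PHO12, -2.98 for SPL2, -2.64 for PHO11, -2.01 for PHO5, -1.99 for PHO84, -1.38 for ISU2 and -0.99 for SIT1. Next in size were -0.79 for ERG3 and -0.74 for FET3. Among wall, separation and cell cycle genes the positive values were 4.40 for PIR3, 3.09 for BAG7, 2.05 for SPI1, 1.79 for PST1, 1.73 for CLB1, 1.56 for YPS3, 1.13 for MTL1 and 1.01 for CLN1. GSC2 had 0.36. Below 0 lay -2.20 for DSE4, -1.87 for EGT2, -1.26 for HTB2, -1.22 for UTR2, -1.11 for CTS1, -0.80 for PCL1, -0.69 for HTA2 and -0.51 for FAR1. Among replication and repair genes the positive values were 1.74 for RNR3, 1.69 for PHR1, 1.33 for HUG1, 1.18 for RNR4, 1.14 for DUN1, 1.00 for RNR2, 0.57 for RFX1 and 0.41 for RAD54. TEL1 had 0.34. Below 0 came -0.44 for RAD52, -0.40 for RFC1 and -0.31 for SML1. Among regulators and mating or sporulation markers the positive values were 2.68 for USV1, 1.87 for XBP1, 1.80 for NRG1, 1.54 for NDT80 and 0.60 for SAG1. Negative in this set were -1.07 for BAR1 and -0.44 for STE2.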

How the results depend on the processing

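Except where named here, counts over all genes stayed within 1.5 times of the reported ones under median-of-ratios factors, library size alone, no filter, a minimum of 5 CPM in 2 libraries, limma-voom, DESeq2 (2652 changed), the 4 knockout libraries alone (3000 changed) and each library left out. Against a 1.5-fold change 848 genes passed in the knockout, 545 higher and 303 lower, and 285 in the interaction. Scaled by library size alone 2803 were higher and 842 lower. Leaving out 1 library gave 2832 to 3402 changed, 1474 to 1734 higher, 1358 to 1674 lower and 1339 to 2388 with an interaction. Where that left a group with 1 library, it was assumed to vary like the others. A block on replicate number within genotype gave 3415 changed, 1781 higher, 1634 lower and 2120 with an interaction. Deviations of libraries with the same number correlated at 0.114 in the knockout and 0.0125 in wild type over 2 pairs each, too few to settle whether the numbers pair the libraries. Of 156 named genes past the threshold in the knockout, 148 passed under every alternative except the 1.5-fold test, which 27 did not pass. CDC9 changed sign, from -0.21 to 0.03 under library size alone, a scaling that moves the median of all genes by 0.24.

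With 2 libraries per group a single library can decide a size, above all replicate 2 at 37 °C for glucose-repressed genes. The 3 counts that mark the lower limit of reading correspond to at most 0.669 CPM and cover counting error alone.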
